A study of Homo sapiens with 24 samples.

Results

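RNA recovered with HuR from resting airway epithelial cells was compared between 18 h and 3 h of culture. The 6 arrays described here, of 24 in the series, are all those of untreated cells precipitated with the anti-HuR antibody: 3 at 18 h and 3 at 3 h, 1 from each of the sets numbered 1, 3 and 4. They were chosen by these labels alone, and arrays of the same set were paired. The cells were BEAS-2B, an immortalised line of human bronchial epithelium, given PBS and no cytokine. Lysates were precipitated with the mouse monoclonal antibody 3A2 against HuR or, as a control, with an IgG1 isotype antibody. Radioactive cDNA made from the recovered RNA was read on a commercial membrane that carries genes of the autoimmune and inflammatory response. Other groups used for comparison were the untreated IgG1 precipitate at both times (6 arrays) and the HuR precipitate at both times from cells stimulated with the cytokines TNFα and IFNγ (50 ng/ml of each; 6 arrays). The design text states 3 biological replicates, and all samples came from 1 cell line. The fit used all 24 arrays.

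HuR, the product of ELAVL1, binds RNA. It attaches to uridine-rich and AU-rich stretches, mostly in the 3′ ends of mRNAs, and tends to protect its ligands from decay. Many of its ligands encode cytokines, growth factors and fast-response transcription factors, whose mRNAs are short-lived. The value of a transcript in the precipitate depends on how much of it the cell holds as well as on how much of it HuR binds. Input RNA was not analysed here, so these cannot be told apart from the precipitate alone. Because the arrays compare transcripts with one another, fewer recovered molecules overall would not be seen either.

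Of 384 probes on the array, 355 had a value in every array, and each represents 1 gene. Neither ELAVL1 nor PTGS2, a prostaglandin-synthesis gene with an AU-rich mRNA, had a value. Levels are given as log2 intensity minus the median of the same array, so 0 means the middle transcript of that array and 1 is a whole log2 unit above it. Median intensity ran from 2801 to 18857 units in the 6 arrays, and the middle transcript lay only 0.493 to 1.36 log2 units above the dimmest one, so values near 0 may hold mostly background. None of the 5 epithelial markers was measured. Of 11 measured leukocyte markers, 0 reached 1 log2 unit above the median in any of the 6 arrays. Their median level was between -0.62 and -0.10, and their summed linear level ran from 7.19 to 11.3 with no split by time.

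The 18 h HuR array of set 4 stood apart from the other 5 HuR arrays of untreated cells. It had the widest spread of all 24 arrays, with an interquartile range of 1.74 log2 units, and 97 of its transcripts lay more than 1 log2 unit above the median. The 18 h arrays of sets 1 and 3 had 32 and 35 such transcripts, and the 3 h arrays of sets 1, 3 and 4 had 70, 73 and 54. When limma weighted arrays by how well they followed the model, this array received the lowest weight (0.133). Over all 24 arrays it was not alone in its spread, since the 18 h IgG1 array of stimulated cells in set 3 had an interquartile range of 1.69 and 107 such transcripts. Results below are therefore given with it and, where it matters, without it. The part of this array in the results was not tested beyond leaving it out.

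Over all 3 sets, no transcript of the HuR precipitate passed the test between 18 h and 3 h. In limma with the set as a block, 0 of 355 genes (0%) had a Benjamini-Hochberg adjusted p under 0.05. Without adjustment, 7 genes were lower at 18 h (1.97%) and 0 were higher (0%) at a p under 0.05. FOSL1, GREM1, IL11, ELK1, EGR1 and IL4R were among the 7. The fitted change was below 0 for 218 genes (61.4%) and above 0 for 137 (38.6%), with a median of -0.07. Only 4 transcripts (1.13%) were at least 1 log2 unit lower in the mean, EGR1, FOSL1 and EGR3 among them, and 0 were as much higher. The 95% interval reached a median of 0.51 log2 units to each side of the estimate, with a range from 0.29 to 1.87. For 278 of the 355 genes the whole interval lay within 1 log2 unit of no change. Only 107 probes (30.1%), however, averaged at least 0.5 log2 units above the array median over the 24 arrays. For dim probes, whose values may hold mostly background, a narrow interval does not bound a change in the RNA. A drift smaller than a gene's own interval was not detectable with 3 arrays per group.

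FOSL1 encodes Fra-1, a partner of JUN in the AP-1 transcription factor. In the HuR precipitate it stood at 1.29, 3.26 and 1.93 log2 units over the array median in sets 1, 3 and 4 at 3 h. At 18 h it stood at 0.42, 0.85 and 1.28. The 3 h array of set 3 was by far the highest, and the lowest 3 h array lay above the highest 18 h array, by a narrow margin. The fitted difference was -1.31 ± 0.41 log2 units (SE, 3 arrays in each group, 95% interval -2.17 to -0.45, limma adjusted p = 0.883). It was -1.52 without the 18 h array of set 4 and -0.76 without set 3, so set 3 moved the size by more than 1.5 times.

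EGR1, an immediate-early zinc-finger transcription factor, stood at 2.99, 4.29 and 1.74 at 3 h in sets 1, 3 and 4. At 18 h its levels were 1.48, 1.51 and 1.64, nearly the same in every set. The whole span was therefore in the 3 h arrays, and set 4 differed by only -0.11 between times. The fitted difference was -1.47 ± 0.62 (SE, limma adjusted p = 0.994), and it was -0.81 without set 3 and -1.79 without the 18 h array of set 4. EGR3, a member of the same family, followed a like course, from 2.33, 2.83 and 0.95 to 1.52, 0.71 and 0.86. Its groups overlapped, and its difference was -1.01 ± 0.55 (95% interval -2.16 to 0.15). Without the 18 h array of set 4 the EGR3 difference was -1.36, and without set 3 it was -0.45. EGR2, also measured, which was chosen after its values were seen, differed by -0.67, -0.73 and 0.07 in the 3 sets.

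**Figure D1:**
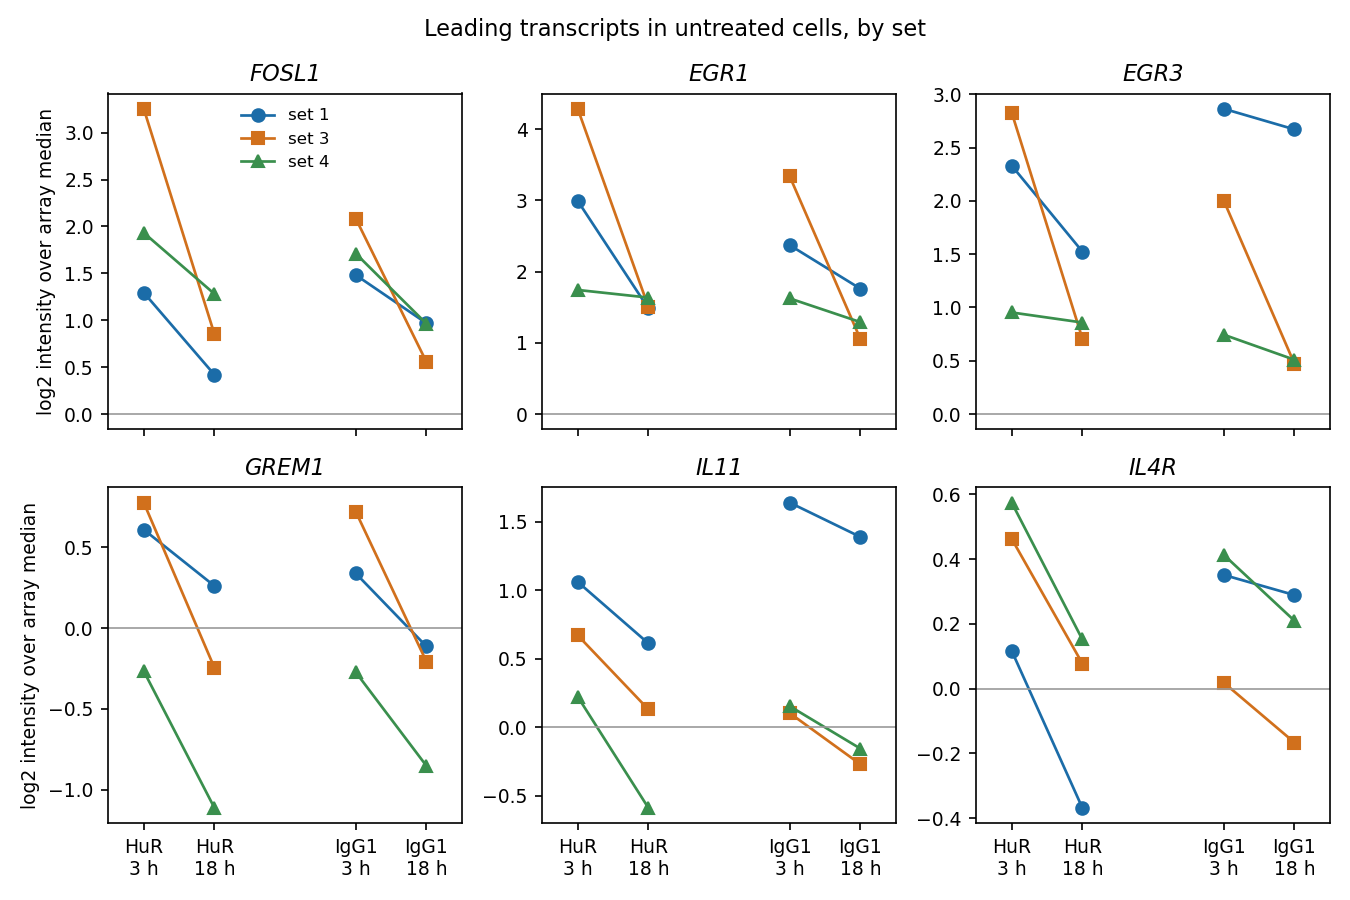
Level of 6 leading transcripts (log2 intensity over the array median, y axis, own scale in each panel) in the HuR and IgG1 precipitates of untreated cells at 3 h and 18 h. Each line joins the 2 arrays of 1 set, and every line runs downward in both precipitates. FOSL1 goes from 1.29, 3.26 and 1.93 to 0.42, 0.85 and 1.28 in the HuR precipitate.

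Genes of the early growth response are switched on within minutes by serum response factor at CArG boxes. AP-1 and the EGR proteins bind sites of their own. The bases upstream of EGR1 and IL11 are shown because both transcripts were among the 7 and their stretches hold such letters. The stretches of GREM1 (2 starts), ELK1 and IL4R, searched in the same way, held 0 matches. For FOSL1 no stretch was available, so it was not searched. Sequences are from RefSeq (GRCh38.p14), 250 bases up to the gene's start, printed on the gene's own strand. Capitals mark the matches. In EGR1 (chr5:138465229-138465478, plus strand) they are 1 EGR site at bases -198 to -190 and 2 CArG boxes at -105 to -96 and -83 to -74. In IL11 (chr19:55370464-55370713, minus strand) they are 1 AP-1 site at -96 to -90.
EGR1: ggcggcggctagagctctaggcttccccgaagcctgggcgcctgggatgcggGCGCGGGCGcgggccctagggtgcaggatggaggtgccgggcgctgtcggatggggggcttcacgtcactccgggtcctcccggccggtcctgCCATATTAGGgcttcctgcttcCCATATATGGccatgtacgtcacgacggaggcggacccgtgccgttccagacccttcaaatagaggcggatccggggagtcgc
IL11: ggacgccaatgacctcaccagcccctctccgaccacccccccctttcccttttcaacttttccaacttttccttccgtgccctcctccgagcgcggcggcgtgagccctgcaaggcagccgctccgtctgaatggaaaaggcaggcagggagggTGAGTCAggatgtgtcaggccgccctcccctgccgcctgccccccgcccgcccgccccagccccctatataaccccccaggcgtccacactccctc

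Both strands of each stretch were searched for the CArG box, the AP-1 site TGANTCA, the EGR site GCGNGGGCG and the cyclic AMP response element TGACGTCA, where N is any base. Of 35116 RefSeq promoters of the same length, 1.16% held a CArG box, 6.57% an AP-1 site, 8.41% an EGR site and 1.65% the cyclic AMP element. The pairs of motifs did not overlap in these windows. These matches describe the letters and do not show that a factor was bound.

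GREM1 and IL11 were lower at 18 h in each set without separating the groups. GREM1, a secreted antagonist of bone morphogenetic proteins, stood at 0.61, 0.78 and -0.27 at 3 h and at 0.26, -0.25 and -1.11 at 18 h in sets 1, 3 and 4. Its difference was -0.74 ± 0.26 (SE, limma adjusted p = 0.994). IL11, a cytokine of the IL-6 family made by epithelium and fibroblasts, went from 1.06, 0.67 and 0.22 to 0.61, 0.13 and -0.59. Its difference was -0.60 ± 0.22 (limma adjusted p = 0.994). For both genes, set 4 was the lowest at each time and the differences between sets were as large as those between times.

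ELK1 and IL4R differed by little but evenly. ELK1, a ternary complex factor that works with serum response factor, was at 0.67, 1.06 and 1.23 at 3 h and at 0.30, 0.55 and 0.83 at 18 h. Its difference was -0.43 ± 0.17 (SE, limma adjusted p = 0.994). IL4R, a chain of the receptors for IL-4 and IL-13, went from 0.12, 0.46 and 0.57 to -0.37, 0.08 and 0.15, a difference of -0.43 ± 0.18 (limma adjusted p = 0.994). The 3 other genes with the smallest p on the lower side were SELPLG (the selectin ligand PSGL-1), GATA4 (a transcription factor) and MAP3K14 (the kinase NIK of the alternative NF-κB pathway). Their fitted differences were -0.51, -0.32 and -0.38, each lower in 3 of 3 sets.

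On the higher side the differences were smaller. IKBKG, the NEMO subunit of the IκB kinase complex, stood at -0.14, -0.02 and -0.37 at 3 h and at 0.28, 0.08 and 0.24 at 18 h, with no overlap between groups. Its difference was 0.37 ± 0.19 (SE, limma adjusted p = 0.994). IKBKB, the catalytic subunit IKKβ, went from -0.02, 0.18 and 0.17 to 0.35, 0.19 and 0.41, a difference of 0.21 ± 0.17. The related kinase IKBKE differed by 0.35 ± 0.22 and was higher in 3 of 3 sets. All 3 transcripts lay within 0.5 log2 units of the array median in every one of the 6 arrays. Groups without overlap were found for 3 lower genes (0.845%), EGR1 and FOSL1 among them, and 3 higher genes (0.845%; IKBKB, IKBKG and LAT). LAT, a T-cell adaptor, differed by 0.24 ± 0.25 and was dim in all 6 arrays, with levels from -0.63 to -0.17.

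The other genes with the smallest p above 0 were FKBP1B, TLR9, IL15, CREBBP, FCER1A and GATA3, with fitted differences of 0.26, 0.27, 0.27, 0.25, 0.22 and 0.17. All 6 of their intervals included 0. The largest differences that were higher in every set were those of ICAM1 and IL15RA beside the kinase genes and IL15. ICAM1, the adhesion molecule that binds leukocyte integrins, went from -0.31, -0.01 and 0.54 to -0.11, 0.12 and 1.76. Nearly all of its 0.51 ± 0.64 came from set 4. IL15RA, a receptor chain for IL-15, differed by 0.27 ± 0.43.

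**Figure D2:**
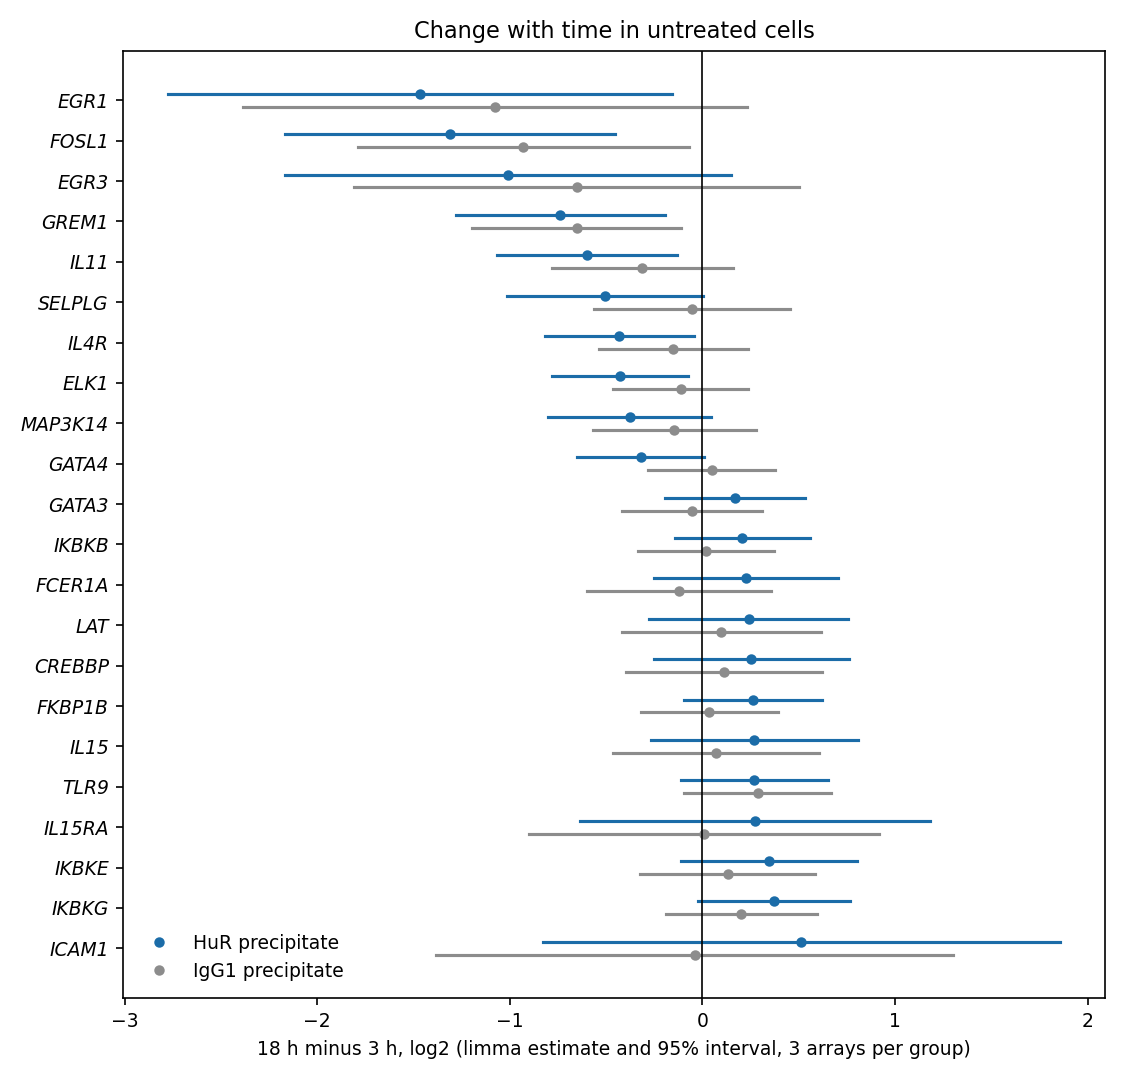
Fitted log2 difference, 18 h minus 3 h (x axis), with 95% intervals from limma, for genes named by smallest p or by largest difference of 1 sign. Blue is the HuR precipitate and grey the IgG1 precipitate. EGR1 at -1.47 and FOSL1 at -1.31 lie farthest from 0 among those with intervals below it, and each blue interval overlaps its grey one.

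For the chemokine and cytokine transcripts for which HuR is known in airway epithelium, named here and in the next paragraph, each 95% interval of the difference with time included 0. CCL2, which attracts monocytes, was one of the brighter ones, at 3.55, 1.70 and 2.50 at 3 h and at 1.84, 0.73 and 2.76 at 18 h in sets 1, 3 and 4. It was lower at 18 h in sets 1 and 3 and higher in set 4, and its fitted difference was -0.80 ± 0.89 (SE, 95% interval -2.68 to 1.07). CXCL1, a neutrophil chemokine, went from 0.27, 1.09 and 1.95 to 0.36, 0.04 and 1.56, a difference of -0.45 ± 0.67. CXCL2, its close relative, went from 1.86, 0.51 and 1.98 to 1.66, -0.03 and 1.83, lower by a little in each set (-0.29 ± 0.78). Probes for such related chemokines may share sequence. CXCL8, the main neutrophil chemokine, was near the median in every untreated array, from -0.51 to 0.84, and differed by -0.41 ± 0.76.

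IL6, a cytokine of the acute phase, was lower at 18 h in 3 of 3 sets, from -0.09, 0.60 and 0.64 to -0.24, 0.05 and 0.09, a difference of -0.42 ± 0.33 (SE, 95% interval -1.12 to 0.28). CXCL10, CCL5 and CCL20, chemokines induced by cytokines, differed by -0.13 ± 0.85, -0.01 ± 0.67 and -0.11 ± 0.29. Levels of CCL5 ran from -1.14 to 0.19 in the 6 arrays, so the lowest lay well below the middle transcript. Leaving out arrays or sets, the CXCL10 difference ran from -0.98 to 0.45. IL1A and IL1B differed by 0.05 ± 0.34 and -0.16 ± 0.49, and TNF by 0.06 ± 0.32. The interferon-response factor IRF1 differed by 0.06 ± 0.38. The NF-κB inhibitors NFKBIA and TNFAIP3 differed by -0.22 ± 0.55 and -0.08 ± 0.43. All of these had an adjusted limma p of 0.994.

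Among transcription factors and growth genes, some of the brightest transcripts of the precipitate differed between sets far more than between times. MYC, a growth-driving factor with a short-lived, AU-rich mRNA, was at 5.00, 3.38 and 1.45 at 3 h and at 4.11, 1.55 and 2.80 at 18 h. That is -0.89 in set 1, -1.83 in set 3 and 1.35 in set 4, with a fitted difference of -0.46 ± 0.60. JUND, an AP-1 subunit, went from 4.65, 1.75 and 1.79 to 3.19, 1.20 and 3.22 (-0.20 ± 0.87). JUN, another AP-1 subunit, went from 1.19, 2.72 and 1.65 to 0.54, 1.26 and 2.15 (-0.54 ± 0.40). In each of these genes, set 4 ran opposite to sets 1 and 3.

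FOS, the classic partner of JUN, was dim in all 6 arrays and differed by 0.18 ± 0.18. MAX, the partner of MYC, differed by -0.33 ± 0.58, RUNX1, a transcription factor, by -0.47 ± 0.52 and ATF2, a stress-responsive factor, by 0.25 ± 0.60. CDKN1A, which encodes the cell-cycle inhibitor p21, went from 1.19, 2.44 and 1.74 to 0.79, 1.48 and 2.26 (-0.28 ± 0.45). VEGFA and TGFB1, both growth factors, differed by -0.19 ± 0.33 and -0.14 ± 0.30. Of these, MAX, RUNX1, CDKN1A, VEGFA and TGFB1 also were lower in sets 1 and 3 and higher in set 4.

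That opposition ran through the bright transcripts as a whole. Among transcripts whose mean over both times was at least 1 log2 unit above the median, 48 of 48 were lower at 18 h in set 1 (median -0.91) and 56 of 56 in set 3 (median -0.97). In set 4, 67 of 73 were higher (median 0.94). The regression slope of 18 h on 3 h levels was 0.61, 0.55 and 1.41 in sets 1, 3 and 4, so the range of levels was compressed at 18 h in sets 1 and 3 and stretched in set 4. In the IgG1 precipitate, 21 of 44 bright transcripts were lower in set 1, 44 of 46 in set 3 and 16 of 34 in set 4. Across the 355 genes, which are not independent replicates, the changes of sets 1 and 3 correlated at r = 0.40, those of sets 1 and 4 at -0.50 and those of sets 3 and 4 at -0.40. The pattern lower, lower, higher in sets 1, 3 and 4 was held by 116 genes (32.7%), and higher, higher, lower by 71 (20%).

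**Figure D3:**
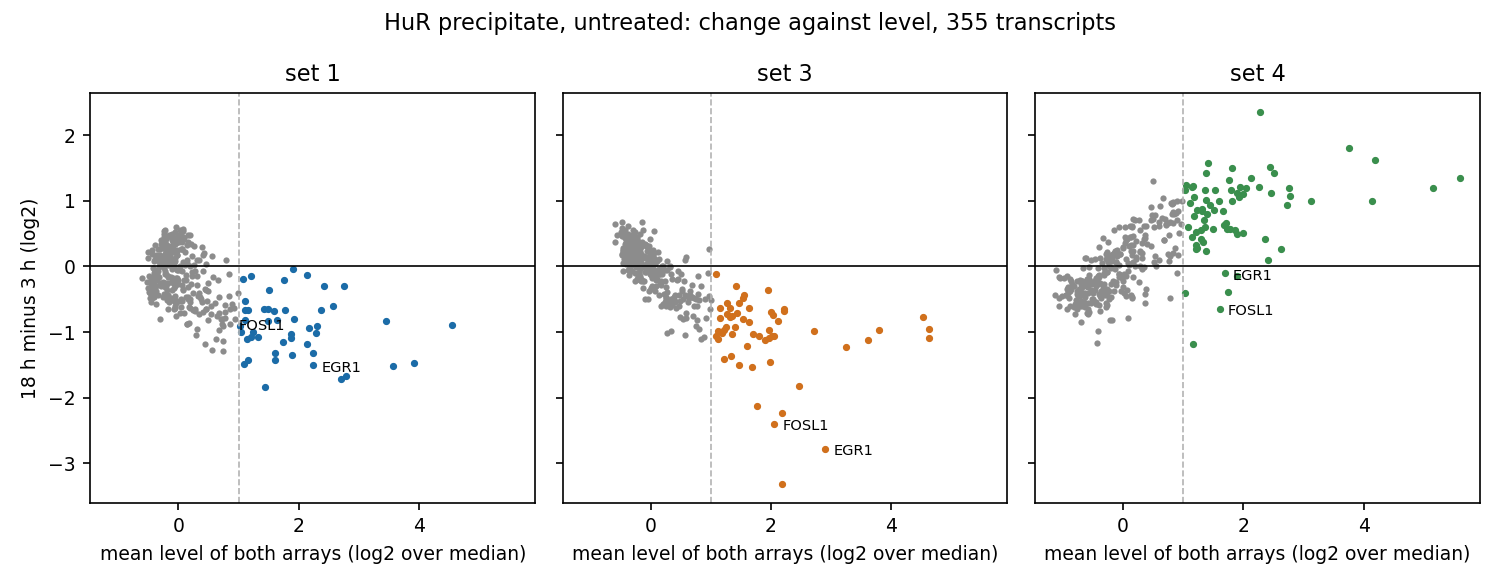
Difference between 18 h and 3 h in the HuR precipitate of each set (log2, y axis) against the mean level of both arrays (log2 over the median, x axis) for 355 transcripts. Coloured points lie at a mean level of 1 or more (dashed line). They are below 0 in 48 of 48 and 56 of 56 cases in sets 1 and 3 and above 0 in 67 of 73 in set 4, where FOSL1 and EGR1 are among the 6 exceptions.

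Against this, FOSL1 and EGR1 were bright transcripts that were lower in set 4 as well, by -0.65 and -0.11. By a rule chosen after the values were seen, 52 genes (14.6%) were lower by at least 0.5 log2 units in the mean of sets 1 and 3 and higher by over 0.5 in set 4, and 1 gene (0.282%) did the reverse. TGFBI, a matrix protein induced by TGF-β, was the most extreme, at -0.26, -0.99 and 2.35. Others were the calcineurin subunit PPP3R1 (-1.33, -1.09 and 0.94), the receptor TGFBR1 (-1.84, -0.83 and 1.20) and NFKBIA (-0.80, -1.05 and 1.21). The 52 held 9 of 22 growth and stress transcription factors, 7 of 26 genes of TGF-β, activin and BMP signalling, 5 of 14 calcineurin and NFAT genes and 3 of 8 TNF receptors. They held 4 of 27 genes of the NF-κB pathway and 4 of 35 described HuR ligands and AU-rich mRNAs. They held 0 of 20 CC chemokines, 0 of 13 other chemokines, 0 of 16 chemokine receptors and 0 of 23 interleukins. All 52 lay above the array median in both HuR arrays of set 4 and in the 3 h HuR array of set 3. The lists were not matched for level, and how far level accounts for the split by list was not tested.

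For these 52 transcripts the HuR level was also set against the IgG1 level of the same set and time. At 3 h the median ratio, in log2 units, was 0.17, 0.43 and 0.21 in sets 1, 3 and 4. At 18 h it was -0.34, 0.02 and 1.19. The other 303 genes had 18 h medians of -0.04, 0.03 and -0.13. The rule that chose the 52 used the same HuR arrays, so these ratios only describe them. The IgG1 changes of these transcripts had medians of -0.13, -0.36 and 0.02, beside 1.00 in the HuR array pair of set 4.

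Gene lists are described by counts and medians. In the fit on all arrays, 0 genes of any list passed, and the medians were close to that of all genes, -0.07. The list of growth and stress transcription factors had a median of -0.17, with 15 of 22 below 0 and 3 of 22 (EGR1, FOSL1 and ELK1) at an unadjusted p under 0.05. Immediate-early and growth-related genes, which overlap with it, had 11 of 12 below 0 and a median of -0.19. The median was -0.15 for MAP kinases (10 of 12 below 0) and -0.13 for TGF-β, activin and BMP signalling (21 of 26 below 0). It was -0.09 for the NF-κB pathway, with 16 of 27 below 0.

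Interleukin receptors had a median of -0.10, with 13 of 21 below 0. CC chemokines had a median of 0.01 (10 of 20 below 0), the other chemokines -0.07 (8 of 13), chemokine receptors 0.00 (8 of 16) and interleukins 0.05 (10 of 23). Described HuR ligands and mRNAs with AU-rich elements had 18 of 35 below 0 and a median of -0.07, the same as all genes. Leukocyte markers had 6 of 11 below 0 and a median of -0.00. The medians were -0.07 for genes inducible by NF-κB (22 of 37 below 0) and -0.01 for genes inducible by IFNγ (10 of 17).

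The medians near 0 covered opposite values in the sets. Growth and stress transcription factors had medians of -0.66 and -0.53 in sets 1 and 3 and 0.61 in set 4, and MAP kinases -0.35, -0.67 and 0.55. CC chemokines ran the other way, at 0.27, 0.17 and -0.44, as did interleukins at 0.10, 0.28 and -0.34 and leukocyte markers at 0.11, 0.31 and -0.43. TNF receptors had -0.68, 0.12 and 0.71.

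**Figure D4:**
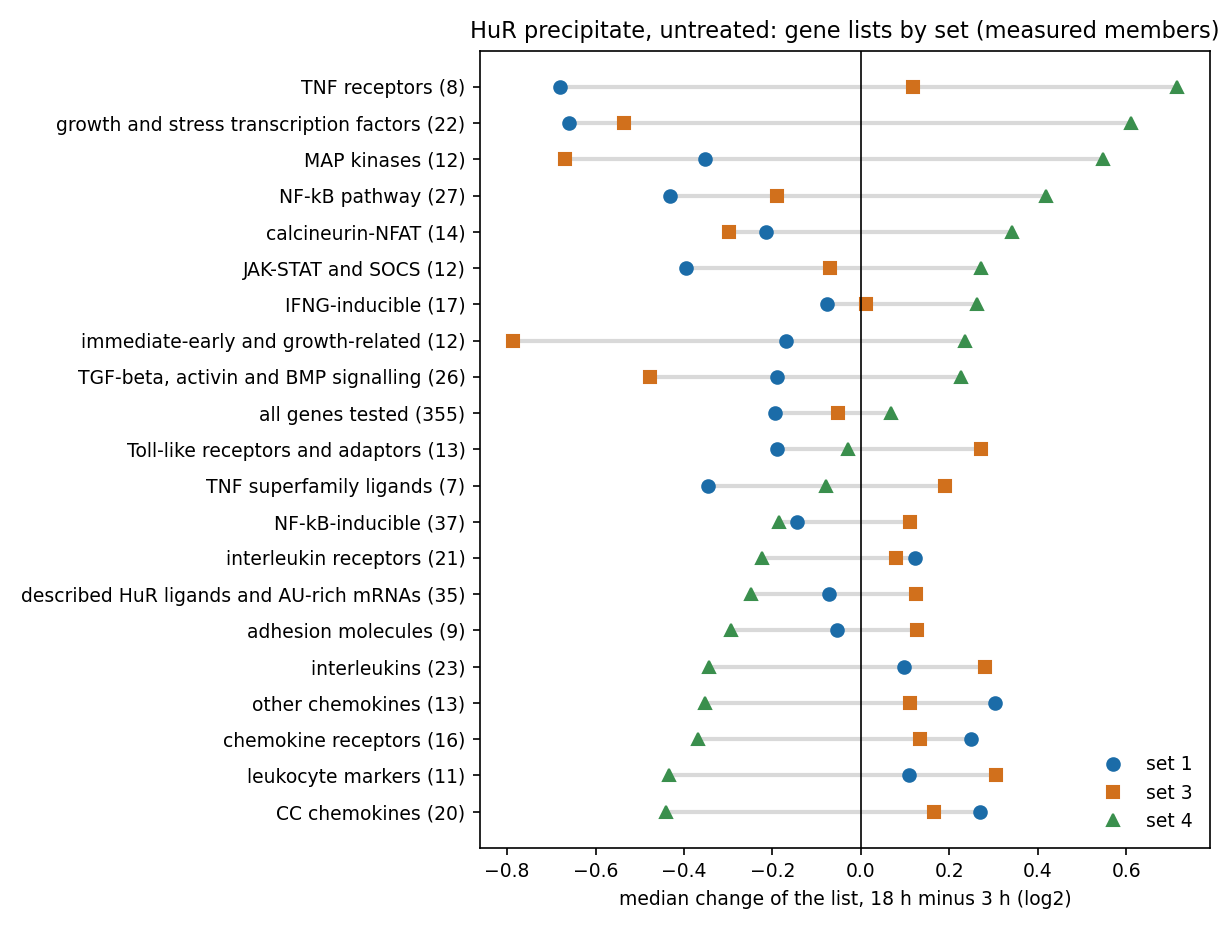
Median log2 difference, 18 h minus 3 h, of each gene list in the HuR precipitate (x axis), 1 symbol per set, with the number of measured members in brackets. The lists were not matched for level. Lists of transcription factors and kinases lie left of 0 in sets 1 and 3 and right of it in set 4 (growth and stress transcription factors -0.66, -0.53 and 0.61), and CC chemokines lie the other way round.

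Without the 18 h HuR array of set 4, still 0 of 355 genes passed. At an unadjusted p under 0.05, 29 of the 355 were lower and 9 higher, against 7 and 0 with it. Among the genes with the smallest p were then SDF2 (-0.69), PLAU (-0.80) and FOSL1 (-1.52), with adjusted limma p-values between 0.261 and 0.289. PLAU encodes urokinase, a secreted protease. Of the higher genes, CXCR4 (0.39), CCL15 (0.36) and IKBKE (0.54) had the smallest p beside CD247 and MECOM. These genes were chosen after their values were seen.

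The same omission moved the medians of the lists. All 355 genes then had a median of -0.14, with 220 below 0 and 135 above it. MAP kinases had -0.40 with 12 of 12 below 0, growth and stress transcription factors -0.52 with 18 of 22, the NF-κB pathway -0.36 with 23 of 27 and TNF receptors -0.36 with 8 of 8. CC chemokines had 0.25 with 17 of 20 above 0, interleukins 0.25 with 15 of 23 and chemokine receptors 0.11 with 15 of 16. When every array was instead scaled to a common spread, an alternative chosen after seeing the data, FOSL1 differed by -1.03 (limma adjusted p = 0.993).

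The IgG1 precipitate of the same untreated cells gave the background of the change. There, too, 0 of 355 genes (0%) passed, and 4 were lower (1.13%) and 0 higher (0%) at an unadjusted limma p under 0.05. Among the 4, IGFBP3 differed by -1.18, FOSL1 by -0.93 and GREM1 by -0.65, and FOSL1 and GREM1 were also among the 7 of the HuR precipitate. The IgG1 changes of FOSL1 in sets 1, 3 and 4 were -0.51, -1.53 and -0.75, beside -0.88, -2.40 and -0.65 with HuR. EGR1 differed by -1.08, EGR3 by -0.65 and IL11 by -0.31 in the IgG1 precipitate, each lower in 3 of 3 sets.

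Whether the drift differed between the antibodies was tested as an interaction. The fit held no term for the HuR and IgG1 precipitates of the same condition and set, so it treated them as independent. Across genes, their untreated drifts correlated at r = -0.03, 0.76 and 0.28 in sets 1, 3 and 4. No gene passed, and 0 genes had an unadjusted limma p under 0.05 in either direction (0%). The smallest p was that of VAV1, an adaptor of blood cells, whose drift in the HuR precipitate minus that in the IgG1 precipitate was -0.74 (limma adjusted p = 0.999). For FOSL1 the difference of drifts was -0.38 ± 0.58 (SE, limma adjusted p = 0.999). This does not show that the drifts were alike, since the 95% interval reached a median of 0.72 log2 units to each side.

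Across sets, 28 genes (7.89%) were lower at 18 h in all 3 sets of the HuR precipitate and 83 (23.4%) in all 3 sets of the IgG1 precipitate. They shared 17 genes, which is 60.7% of the first list and 20.5% of the second. For genes higher in all 3 sets the numbers were 17 (4.79%) and 18 (5.07%), with 2 shared, 11.8% and 11.1% of the lists. In the stimulated HuR precipitate 32 genes (9.01%) were lower and 66 (18.6%) higher in all 3 sets. They shared 5 lower genes with the untreated HuR precipitate (17.9% of 28 and 15.6% of 32) and 10 higher genes (58.8% of 17 and 15.2% of 66).

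In cells given TNFα and IFNγ, 1 gene passed between 18 h and 3 h in the HuR precipitate (0.282%). It was CCL5, which encodes the T-cell chemokine RANTES, higher by 3.44 log2 units (limma adjusted p = 0.0254, higher in 3 of 3 sets), beside -0.01 in untreated cells. Without adjustment 10 were lower (2.82%) and 11 higher (3.1%). The stimulated drift minus the untreated drift was 3.45 ± 0.94 for CCL5 (SE, limma adjusted p = 0.657). In that test 0 genes passed (0%), and 2 were lower and 2 higher without adjustment (0.563% each). Next were IL1A with -1.17, CXCL8 with -2.60, IL18BP with 1.07 and GREM1 with 0.74. CXCL8 differed by 0.11, -5.34 and -3.78 between times in sets 1, 3 and 4 of stimulated cells and by 0.54, -0.98 and -0.78 in untreated cells.

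FOSL1 differed in the same direction with and without cytokines. In the stimulated HuR precipitate it differed by -1.65, beside -1.31 in untreated cells. The difference between these drifts was -0.34 ± 0.58 (SE). Over both antibodies and both treatments there were 12 pairs of 18 h and 3 h arrays. Only 4 of 355 genes (1.13%), FOSL1, IL12A and IL6R among them, were lower at 18 h in 12 of 12 pairs. IL12A (a subunit of IL-12) and IL6R (the IL-6 receptor) differed by small amounts in the untreated HuR precipitate, -0.12, -0.09 and -0.26 for IL12A and -0.18, -0.12 and -0.27 for IL6R. The 2 precipitates of a condition and set carry the same set number, so the 12 pairs are not 12 independent cultures.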

How the data were processed

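RNA from HuR and IgG1 precipitates of BEAS-2B cells was measured on 24 membrane arrays, 8 groups of 3. The authors deposited 1 intensity per probe and array, whole numbers with no normalization per the file's name. How the images were read and whether background was subtracted is not stated in the labels. Another deposited table carries these intensity values times 1 factor per array (0.542 to 3.64). Names follow probe accessions in the GRCh38.p14 gene table, used for names only (342 of 355 matched, and 13 keep the file's symbol). Some genes are not reported here.

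From there, intensities were put on the log2 scale, centred on each array's median over 355 probes, and fitted with limma 3.58.1 in R 4.3.3 (lmFit, eBayes) on all 24 arrays, with a coefficient per group and the set number as a block. P-values were adjusted by Benjamini-Hochberg over 355 genes, threshold 0.05. Set numbers come from the titles. Deviations of same-numbered 18 h and 3 h HuR arrays from their group means correlated at 0.761, 0.463 and 0.322 in sets 1, 3 and 4, all over 0.1, and the numbers were taken to pair the arrays. Of the 6 pairs of unlike number, 4 correlated below 0, but the 18 h array of set 4 correlated at 0.358 with the 3 h array of set 3, above its own pair, and the 18 h array of set 3 at 0.255 with the 3 h array of set 4. The code was tested on simulated data. Precision is limited by 3 arrays per group.

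Genes were named by rule: those passing, or the 10 with the smallest p in each direction, the 5 with the largest difference of 1 sign in all sets in each direction, a panel of 27 genes, and each list's extremes, of which only some are printed. Others are said to be chosen afterwards. The comparison, the lists and the panel were chosen with earlier results of these data known. Lists were given no test. Alternatives changed the block, arrays, normalization, background, dim-probe filter and array weights, or left out replicates.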

Additional observations from a re-analysis of the deposited data

Results flagged for a closer look

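Of 355 transcripts, 3 moved in opposite directions in every set of the untreated and of the stimulated HuR precipitate. All 3 were lower at 18 h in untreated cells and higher in stimulated cells. In all sets, 28 transcripts (7.89%) were lower and 17 (4.79%) higher in untreated cells, and 66 (18.6%) were higher and 32 (9.01%) lower in stimulated cells. Unrelated lists of these sizes would also share some transcripts, so the count alone is no result about these 3. IL18BP, which encodes a decoy for IL-18, had a mean change of -0.24 in untreated and 0.83 in stimulated cells. JAK2, a kinase of cytokine receptors, had -0.18 and 0.16. NUP214, a nuclear pore protein, had -0.14 and 0.06. In the limma test of the difference between the drifts, all 3 had an adjusted p of 1.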

How the results depend on the processing

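No gene passed between 18 h and 3 h in the untreated HuR precipitate in 20 of 21 alternatives, and quantile normalization gave 1 gene. In the untreated IgG1 precipitate, quantile normalization gave 2 genes (IGFBP3 among them). With scaling to a common spread, chosen after seeing the data, IGFBP3 was again among the genes passing (-1.46, limma adjusted p = 0.011). The other alternatives gave 0 there. The difference of drifts between antibodies gave 0 genes in every alternative run, including scaling to a common spread, which was chosen after seeing the data. For the stimulated HuR precipitate, with 1 gene in the main analysis, the count was 2 without centring and with the second deposited table. It was 3 with 75th percentile centring and with the filter on dim probes, 5 with quantile normalization and 13 with array weights. Leaving out a set gave 0 to 8. Scaling to a common spread let CCL5, CXCL8, CFB, CCL7 and IL18BP pass there. The stimulated minus untreated drift, 0 in the main analysis, gave 1 gene with only the arrays compared, without centring, with the second table and with array weights, and leaving out a set gave 0 to 2. Without the replicate block, 0 genes passed in the untreated HuR precipitate and 3 were lower at an unadjusted p under 0.05, against 7 with it. That unadjusted count ran from 2 (second table) to 29 (without the 18 h array of set 4). It was also 3 without centring, 3 with the dim filter, 25 with array weights, 12 without set 4, 18 without the 18 h array of set 3 and 3 without the 3 h array of set 3. The cause of these differences was not tested. Of 69 named genes, 7 had an interval that excluded 0, and none of these 7 changed sign in any alternative. Of the other 62, 36 changed sign in at least 1. The 7 were picked on the same arrays that the alternatives reuse, so their stable signs are not independent support. With only the arrays compared, ELK1 had an unadjusted limma p of 0.135 and IL4R of 0.132. Leaving out arrays or sets, FOSL1 ran from -1.64 to -0.76. Signal over background limits the dim transcripts.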
